A study of Mus musculus with 96 samples.

Results

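Hematopoietic cells (HC) of the infarcted mouse heart were compared between Day 28 and Day 14 after surgery, the last pair of time points in a course of cardiac healing. The members are the 4 libraries labelled HC at Day 28 and the 4 labelled HC at Day 14, 8 of the 96 libraries of the series, and all genes were tested. All 8 came from young adult male C57Bl/6J mice whose left anterior descending coronary artery had been tied off permanently. The groups shared strain, sex and surgery and differed in the time since ligation. HC were taken from the digested heart with magnetic beads against CD45, the surface phosphatase of all leukocytes, so each library mixes many leukocyte types with whatever other cells or RNA the beads carried over. RNA of several mice was pooled for each library. The study describes its replicates as biological in one place and technical in another, and p-values therefore rest on how far pools of a day differed. No library of a sham operation was used here.

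Leukocytes enter an infarct in waves. Neutrophils and inflammatory monocytes clear dead tissue, and macrophages derived from monocytes then turn to matrix building, vessel growth and the handling of lipid from dead cells. Resident macrophages, which the heart holds before injury and which die in the infarct, carry scavenger receptors and C-type lectins and return as the scar matures. Day 14 and Day 28 both lie after the inflammatory phase, when the collagen scar has formed and is being remodelled.

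The HC markers were expressed in every library. The CD45 gene Ptprc stood at 956, 812, 858 and 791 CPM at Day 14 and 776, 740, 863 and 576 CPM at Day 28 (replicates 1 to 4 in this order throughout), where CPM is a gene's estimated reads per 1000000 of its library after TMM scaling. The levels of the 4 HC markers (Ptprc, Itgax, Itgal and Cd53) summed to 1183 to 1414 CPM at Day 14 and 844 to 1300 CPM at Day 28. The integrin gene Itgax, also a dendritic cell and macrophage gene, was the one of the 4 whose groups did not overlap (45.4, 40.6, 34.2 and 28.1 CPM against 23.9, 22.5, 24.5 and 19.4). Cardiomyocyte transcripts, described below, summed to more than the HC markers in every library, over 16 genes against 4. Their sums were 7229 to 9319 CPM at Day 14 and 3605 to 7082 CPM at Day 28.

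Day 28 replicates 2 and 4 stood apart from the other 6 libraries. The 8 libraries held 21679460 to 34784030 estimated reads. Over 357 rare genes that lie on the opposite strand of an abundant gene, the summed level was 1739 to 1846 CPM in 6 libraries, 6234 CPM in Day 28 replicate 2 and 11080 CPM in Day 28 replicate 4. Reads of rRNA genes took 32.2% of Day 28 replicate 4, 9.83% of replicate 2 and 13.5% to 16.5% of the others. The median correlation of a library's log CPM with the other 7 was 0.937 in Day 28 replicate 2, 0.902 in replicate 4 and 0.973 to 0.981 in the rest. The study removed 1 HC library of Day 28 as an outlier without saying which. For that reason calls are counted over all 8 libraries and over the 6 without replicates 2 and 4. Values over the 6 are given for some genes and lists only. Of the genes named below, only Gpnmb and Des had an adjusted p under 0.05 in the 6-library edgeR fit. No gene named below as a result lies opposite an abundant gene except where said.

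**Figure D1:**
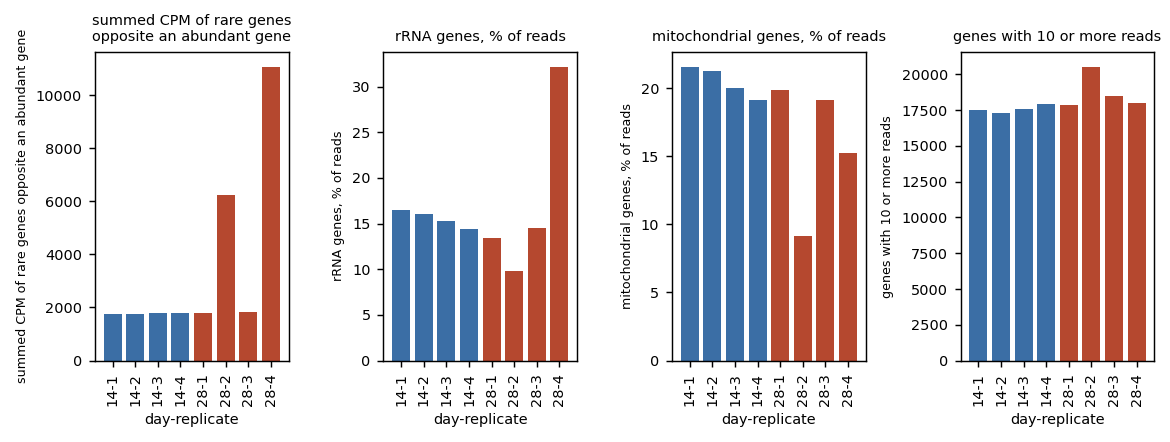
Bars give 1 value per HC library (horizontal axis, day and replicate, blue for Day 14 and red for Day 28): summed CPM of 357 rare genes opposite an abundant gene, percent of reads in rRNA genes, percent in mitochondrial genes, and genes with 10 or more reads. Day 28 replicates 2 and 4 had 6234 and 11080 CPM of opposite-strand genes against 1739 to 1846 in the others.

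Over all 8 libraries no gene passed the test. The edgeR quasi-likelihood test took 17921 genes and called 0 higher and 0 lower at an adjusted p under 0.05 (0% of those tested, smallest adjusted p = 0.2503), while 1316 genes (7.34%) were higher and 1062 (5.93%) lower at an unadjusted p under 0.05. In 643 genes (3.59%) every Day 28 library lay above every Day 14 library, and in 905 (5.05%) every one lay below. These percentages are the background for the counts that follow. Some other fits made calls. With sample weights (limma voom, weights of 0.244 and 0.119 for Day 28 replicates 2 and 4 and 1.18 to 2.49 for the others) 32 genes were higher and 35 lower (0.179% and 0.195%). With the spread estimated over 16 HC libraries of Day 0, Day 3, Day 14 and Day 28, 14 were higher and 23 lower (0.0752% and 0.124% of 18606). The same fit without Day 28 replicates 2 and 4, over 14 libraries, called 0 of 19128 (smallest adjusted p = 0.0767). No gene said below to pass in the 16-library fit therefore passed in the 14-library fit. Without the 2 libraries 2 genes were called, both lower, the macrophage gene Gpnmb and the desmin gene Des (0% and 0.011% of 18179), and 1091 (6%) were higher and 1292 (7.11%) lower at an unadjusted p under 0.05. DESeq2 called 205 higher and 205 lower (1.14% each), and in 107 of these 410 genes the groups overlapped. The weighted fit and the 16-library fit shared 20 calls, 9 higher and 11 lower, and in all 20 the groups did not overlap. None of the 20 lies opposite an abundant gene. In what follows "higher" and "lower" describe levels, and each call under another fit is named with that fit.

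Genes that macrophages of the healing infarct switch on were among those lower at Day 28 by the naming rule, which took only genes whose groups did not overlap. Gpnmb, a glycoprotein gene of macrophages that take up debris, stood at 42.0, 40.7, 41.0 and 39.7 CPM at Day 14 and 18.9, 9.20, 15.3 and 17.0 CPM at Day 28. The 4 Day 14 values were nearly equal and every Day 28 value was well below them. Its log2 fold change was -1.44 ± 0.20 (SE, edgeR adjusted p = 0.2503), and -1.25 ± 0.10 without Day 28 replicates 2 and 4 (adjusted p = 0.0155). It also passed with sample weights (adjusted p = 0.00979) and with the spread of 16 libraries (0.0252).

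Spp1, which encodes osteopontin, a secreted matrix protein of infarct macrophages, stood at 142, 252, 178 and 203 CPM at Day 14 and 26.9, 26.8, 71.3 and 58.7 CPM at Day 28, groups that did not overlap (-2.08 ± 0.35, adjusted p = 0.2503). It passed in the 16-library fit (0.0252) and not with sample weights (0.0585). Tgm2, the tissue transglutaminase gene whose product crosslinks matrix proteins, was at 86.2, 157, 118 and 106 CPM and then at 40.0, 49.2, 44.0 and 43.9 CPM. The Day 28 libraries were closely alike for Tgm2, replicates 2 and 4 included (-1.40 ± 0.18, adjusted p = 0.2503), and it passed with sample weights (0.0461) and in the 16-library fit (0.00346).

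Olr1, a scavenger receptor gene for oxidised lipoprotein, went from 24.96, 38.5, 30.8 and 24.2 CPM to 5.97, 9.35, 14.2 and 8.59 CPM (-1.63 ± 0.27, adjusted p = 0.2503, and 0.0252 in the 16-library fit). Bhlhe40, a transcriptional repressor gene active in stimulated macrophages and T cells, went from 116, 144, 122 and 111 CPM to 60.4, 59.4, 77.8 and 49.9 CPM (-0.99 ± 0.15, adjusted p = 0.2503). For both genes every Day 28 library lay below every Day 14 library, as the naming rule required. Bhlhe40 passed both with sample weights (0.0429) and in the 16-library fit (0.0252).

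**Figure D2:**
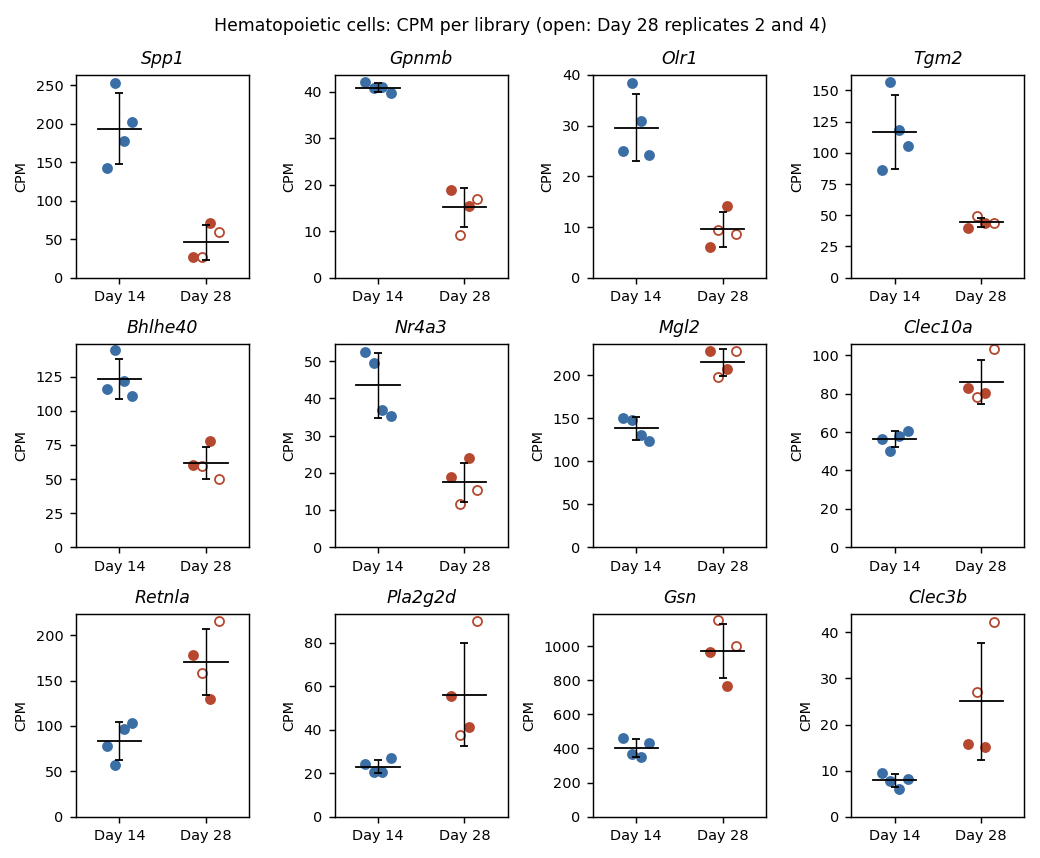
CPM (vertical axis) of 12 genes in each HC library at Day 14 (blue) and Day 28 (red), with open circles for Day 28 replicates 2 and 4, a line at the mean and bars of 1 SD over n = 4 libraries. In all 12 panels the groups do not overlap: Spp1, Gpnmb, Olr1, Tgm2, Bhlhe40 and Nr4a3 are lower at Day 28, and Mgl2, Clec10a, Retnla, Pla2g2d, Gsn and Clec3b are higher. The naming rule required this of Gpnmb, Olr1, Tgm2, Bhlhe40 and Gsn, and the other genes were chosen after their values were seen.

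Other lipid-associated macrophage genes were less uniform. Of its 17 genes, 5 were lower at an unadjusted p under 0.05 (Gpnmb, Spp1, Arg1, Syngr1 and Fabp5) and 0 higher, 2 lay wholly below Day 14, and the median log2 fold change was -0.20 (0.01 over all genes tested). Arg1, the arginase gene, varied widely at both days (107, 367, 411 and 296 CPM against 25.9, 88.5, 69.6 and 170), and its groups overlapped. The lipid receptor gene Trem2 stood at 53.9, 73.6, 71.9 and 64.9 CPM at Day 14 and 59.9, 42.6, 49.2 and 98.8 CPM at Day 28, with Day 28 replicate 4 the highest of the 8 (-0.08 ± 0.25, adjusted p = 0.894). The macrophage core list, genes of most macrophages, had 0 of 15 past an unadjusted p under 0.05 in either direction.

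For Spp1, Gpnmb and Olr1, and for Mgl2, a gene that was higher at Day 28, the 120 bases before the annotated start are shown. They are from RefSeq (GRCm38.p6, the build of the files). They were looked at because 9 of 24 genes of the immediate early list described below were lower at an unadjusted p under 0.05. That list holds Fos and Jun family genes, whose own values are not given here. Its summed level overlapped between the days, and its median was -0.07 without Day 28 replicates 2 and 4. Capitals mark the letters TGANTCA, which the Fos and Jun dimer AP-1 binds, searched on both strands (the letters read the same on either). The lines run 5′ to 3′ on the gene's strand.
Spp1, chr5:104434991-104435110, plus strand: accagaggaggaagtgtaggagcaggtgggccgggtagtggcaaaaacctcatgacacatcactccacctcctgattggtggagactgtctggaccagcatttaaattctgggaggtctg
Gpnmb, chr6:49036398-49036517, plus strand: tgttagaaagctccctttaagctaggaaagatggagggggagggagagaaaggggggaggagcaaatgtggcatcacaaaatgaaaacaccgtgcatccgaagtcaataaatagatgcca
Olr1, chr6:129507166-129507285, minus strand: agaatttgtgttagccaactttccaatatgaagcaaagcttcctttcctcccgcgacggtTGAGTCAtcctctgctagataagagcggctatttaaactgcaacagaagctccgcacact
Mgl2, chr11:70130237-70130356, plus strand: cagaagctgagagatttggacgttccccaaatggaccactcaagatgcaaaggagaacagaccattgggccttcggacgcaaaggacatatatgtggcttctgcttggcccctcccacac
Olr1 alone of the 4 holds a match (TGAGTCA, beginning 60 bases before the start). The letters occur in 1120 of 32851 promoters over the same window (3.41%), so 1 match in 4 is a description and shows no binding.

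Of the 51 lists, growth and repair factors had the largest count of members wholly below Day 14. The shorter lists of EC markers and mural cell genes had a larger share (4 of 10 each). Of 24 genes, 9 were lower and 1 higher at an unadjusted p under 0.05, and 8 lay wholly below and 1 wholly above Day 14, against 5.05% and 3.59% of all genes. Nrg1, the neuregulin gene whose product acts on cardiomyocyte receptors, was at 5.18, 6.96, 5.91 and 5.50 CPM and then at 2.58, 1.41, 2.96 and 1.73 CPM (-1.43 ± 0.26, adjusted p = 0.2503, and 0.0461 with sample weights). Vegfa, the vascular growth factor gene, was at 30.5, 50.4, 41.5 and 38.4 CPM and then at 25.9, 23.5, 19.8 and 20.6 CPM (-0.84 ± 0.17, adjusted p = 0.251). Neither gene's groups overlapped.

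Other members were lower to a like degree. The hepatocyte growth factor gene Hgf had a log2 fold change of -0.72 ± 0.21, the growth factor gene Igf2 of -0.95 ± 0.20 and the EGF receptor ligand gene Hbegf of -0.76 ± 0.18 (adjusted p = 0.317, 0.251 and 0.291). The fibroblast growth factor gene Fgf2 was the member that was higher (8.08, 7.89, 8.28 and 8.65 CPM against 13.1, 10.5, 10.9 and 9.20). Without Day 28 replicates 2 and 4, 8 of the 24 were lower and 3 higher at an unadjusted p under 0.05.

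Inflammatory cytokine genes were mixed. Of 29 cytokine and chemokine genes, 7 were lower and 4 higher at an unadjusted p under 0.05. The interleukin gene Il1a stood at 9.01, 16.4, 11.6 and 10.02 CPM at Day 14 and at 3.19, 2.35, 6.41 and 2.34 CPM at Day 28, with no overlap (-1.71 ± 0.36, adjusted p = 0.251). Il1b, its better known relative, was at 158, 145, 136 and 116 CPM and then at 119, 71.4, 182 and 115 CPM (-0.19 ± 0.25, adjusted p = 0.732), and turned to 0.13 without Day 28 replicates 2 and 4. For Osm, the oncostatin M gene, Day 28 replicate 3 (22.97 CPM) lay within the Day 14 range of 18.4 to 33.2 CPM and the other Day 28 libraries (10.2 to 11.5 CPM) lay below it. The receptor antagonist gene Il1rn overlapped in the same library (16.7 to 30.5 CPM against 12.4, 10.5, 18.5 and 11.7). Pf4, a chemokine gene that cardiac macrophages also make, was at 302, 300, 299 and 349 CPM against 533, 242, 519 and 715 CPM, above Day 14 in 3 of 4 libraries and below it in replicate 2.

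Immediate early genes, which cells induce within minutes of a stimulus and also during tissue digestion, were lower in 9 and higher in 0 of 24 at an unadjusted p under 0.05, and 6 lay wholly below Day 14. The orphan receptor gene Nr4a3 was at 52.5, 49.5, 36.9 and 35.1 CPM and then at 18.9, 11.7, 24.0 and 15.4 CPM (-1.31 ± 0.24, adjusted p = 0.2503, 0.0516 with sample weights). Its relative Nr4a2 (-0.98 ± 0.22, adjusted p = 0.270) and the stress factor gene Atf3 (-0.76 ± 0.20, adjusted p = 0.317) also lay wholly below. The median of the list was -0.25 over 8 libraries and -0.07 without Day 28 replicates 2 and 4. The part of tissue digestion in these values was not tested. NF-kB feedback genes were lower in 4 and higher in 0 of 17, all 4 without overlap, among them the A20 gene Tnfaip3 (324, 260, 209 and 214 CPM against 132, 91.8, 193 and 61.4, -1.08 ± 0.32, adjusted p = 0.317).

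Glycolysis genes were lower in 8 and higher in 0 of 18 at an unadjusted p under 0.05, and in 11 lower and 2 higher without Day 28 replicates 2 and 4. Hk2, a hexokinase gene of activated leukocytes, showed tight groups (89.9, 96.0, 90.9 and 89.3 CPM against 69.0, 70.8, 69.2 and 58.8, -0.45 ± 0.10, adjusted p = 0.254, and 0.0461 with sample weights). Pgk1, a kinase gene of the same pathway, had a log2 fold change of -0.51 ± 0.13 with no overlap (adjusted p = 0.317). The glucose transporter gene Slc2a1 (30.8, 36.1, 29.3 and 28.3 CPM against 20.1, 15.2, 27.2 and 19.4) was separated narrowly, through Day 28 replicate 3. The median of the list was -0.31 with and without replicates 2 and 4. In the hypoxia list 3 of 17 were lower and 0 higher, among them the oxygen-regulated factor gene Hif1a (158, 184, 189 and 152 CPM against 129, 94.9, 134 and 69.5). Cholesterol handling had 6 of 22 lower and 0 higher, with the efflux transporter gene Abcg1 at -0.60 ± 0.17 (adjusted p = 0.317).

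Resident macrophage genes were higher at Day 28. Of 16 tested, 7 were higher and 0 lower at an unadjusted p under 0.05 (7.34% of all genes were higher), the same number lay wholly above Day 14, and without Day 28 replicates 2 and 4 the count was 10 and 0. Mgl2, a C-type lectin gene of macrophages and dendritic cells, stood at 151, 147, 131 and 123 CPM at Day 14 and at 228, 197, 207 and 228 CPM at Day 28. Every Day 28 library was above every Day 14 library by a wide gap (0.64 ± 0.11, adjusted p = 0.2503), and Mgl2 passed with sample weights (0.0461) and in the 16-library fit (0.0337). Cd209f, another lectin gene of resident macrophages, was at 10.4, 11.2, 11.6 and 11.4 CPM and then at 17.5, 12.4, 16.5 and 19.01 CPM (0.56 ± 0.15, adjusted p = 0.317, and 0.0461 with sample weights).

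The other members that lay wholly above were Igfbp4 (0.58 ± 0.11), an insulin-like growth factor binding protein gene, Cbr2 (0.54 ± 0.14), a carbonyl reductase gene, Gas6 (0.40 ± 0.12), a ligand gene for receptors of dead cell uptake, and Fcgrt (0.38 ± 0.13), the neonatal Fc receptor gene, besides Ccl24. The adjusted p of these 4 named with values was 0.2503 to 0.317. Folr2, the folate receptor gene of resident macrophages, split the Day 28 libraries: it was at 167, 196, 167 and 201 CPM at Day 14 and at 266, 104, 272 and 21.2 CPM at Day 28. The unusual replicates 2 and 4 lay below all Day 14 libraries and the other Day 28 libraries above them, so the log2 fold change was -0.14 ± 0.61 over 8 libraries and 0.56 ± 0.10 without replicates 2 and 4 (adjusted p = 0.921 and 0.0907).

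Some well-known resident macrophage genes did not separate the days. Lyve1, a hyaluronan receptor gene, was at 337, 441, 422 and 608 CPM and then at 531, 501, 794 and 471 CPM (0.35 ± 0.23, adjusted p = 0.509). The haptoglobin receptor gene Cd163 was at 444, 546, 412 and 653 CPM and then at 582, 956, 887 and 517 CPM (0.52 ± 0.24, adjusted p = 0.386). Timd4, a phosphatidylserine receptor gene, was at 61.1, 59.3, 73.4 and 85.7 CPM and then at 77.5, 57.3, 82.4 and 77.8 CPM (0.08 ± 0.16, adjusted p = 0.824). The summed level of the list was 6092 to 7504 CPM at Day 14 and 8670, 6603, 9287 and 5189 CPM at Day 28, so the sum too was above Day 14 in replicates 1 and 3 alone. In bulk RNA a larger share of resident macrophages and more RNA of these genes per cell cannot be told apart.

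A further 4 genes that macrophages express, chosen after their values were seen, were higher too. Clec10a, the partner lectin gene of Mgl2, was at 56.6, 50.3, 58.0 and 60.5 CPM and then at 83.1, 78.1, 80.5 and 103 CPM (0.61 ± 0.12, adjusted p = 0.2503, and 0.0461 with sample weights). Retnla, a secreted protein gene induced by interleukin 4, was at 77.9, 56.8, 96.2 and 103 CPM and then at 178, 158, 130 and 216 CPM (1.03 ± 0.22, adjusted p = 0.251). Pla2g2d, a secreted phospholipase gene, was at 24.2, 20.4, 20.8 and 26.9 CPM and then at 55.6, 37.7, 41.1 and 89.8 CPM (1.28 ± 0.27, adjusted p = 0.251, and 0.0429 with sample weights). Blvrb, the biliverdin reductase gene of heme breakdown, was at 43.8, 48.8, 47.6 and 46.6 CPM and then at 74.5, 59.1, 72.1 and 159 CPM. None of the 4 overlapped between days, although Day 28 replicate 4 held the highest value of each. Interleukin 4 also induces Arg1, which was lower (-1.74 ± 0.57, adjusted p = 0.317), and the mannose receptor gene Mrc1, whose groups overlapped (0.15 ± 0.18).

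In the complement list 3 of 19 genes were higher and 0 lower at an unadjusted p under 0.05, and 9 and 0 without Day 28 replicates 2 and 4. The C1 inhibitor gene Serping1 was at 63.7, 46.8, 50.01 and 51.1 CPM and then at 122, 55.0, 79.6 and 121 CPM, and overlapped through replicate 2. C3, the central component, was at 210, 197, 267 and 210 CPM and then at 330, 242, 321 and 310 CPM, and overlapped through the same replicate (0.44 ± 0.15, adjusted p = 0.317). Fibroblasts also express both genes. The interferon response list had 2 higher and 0 lower of 34 (median 0.12), MHC class II genes 1 and 1 of 13 (median 0.25, 0.04 without replicates 2 and 4) and MHC class I genes 1 and 1 of 14 (median 0.09).

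Neutrophil genes had the highest median of all 51 lists, and its size depended on 1 library. Of 14 genes, 7 were higher and 0 lower at an unadjusted p under 0.05 and 6 lay wholly above Day 14. Without Day 28 replicates 2 and 4 the count was 10 and 0, and over 8 libraries all 14 had a log2 fold change above 0. The median log2 fold change was 1.60 over 8 libraries, 0.40 without Day 28 replicate 4 and 0.73 without Day 28 replicates 2 and 4. S100a9, a calcium-binding alarmin gene of neutrophils, was at 109, 90.4, 84.9 and 59.7 CPM and then at 176, 137, 321 and 498 CPM (1.72 ± 0.39, adjusted p = 0.270). Its partner S100a8 was at 75.1, 68.3, 54.9 and 39.9 CPM and then at 95.3, 84.3, 215 and 456 CPM (1.84 ± 0.52, adjusted p = 0.317). The resistin-like gene Retnlg (19.03, 21.1, 24.5 and 17.9 CPM against 31.2, 26.0, 69.5 and 42.6) and the collagenase gene Mmp8 (5.89, 4.20, 3.94 and 3.35 CPM against 7.16, 9.82, 20.4 and 11.0) were likewise above Day 14 in all 4 libraries.

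The genes of immature neutrophils behaved in another way. Camp, the cathelicidin gene of marrow stages, stood at 0.483, 3.00, 0.350 and 0.390 CPM at Day 14 and at 0.950, 0.157, 0.940 and 67.5 CPM at Day 28. Ngp, a granule protein gene of the same stages, was at 2.86, 10.2, 2.76 and 1.75 CPM and then at 3.15, 1.69, 3.62 and 90.4 CPM. Both were high in Day 28 replicate 4 and not in the other Day 28 libraries, and without that replicate their log2 fold changes were -0.60 and -0.62. Cxcr2, a chemokine receptor gene of mature neutrophils, was at 78.7, 71.9, 76.1 and 84.0 CPM and then at 105, 47.5, 127 and 136 CPM.

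Lymphocyte genes showed few differences. Of 20 B cell genes and of 22 T cell genes, 0 passed an unadjusted p under 0.05 in either direction, with and without Day 28 replicates 2 and 4. The T cell median was 0.57 over 8 libraries and -0.20 without the 2, and the summed T cell level was 590 CPM in Day 28 replicate 2 against 142 to 328 CPM in the other Day 28 libraries and 154 to 305 CPM at Day 14. The summed B cell level spread from 1298 to 3281 CPM at Day 14 and from 729 to 3231 CPM at Day 28. Genes of NK and cytotoxic cells were lower in 1 and higher in 0 of 16 and plasma cell genes in 1 and 1 of 12.

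Some genes of group 2 innate lymphoid cells, of checkpoints and of mast cells were lower. In the innate lymphoid type 2 list 5 of 10 genes were lower at an unadjusted p under 0.05 and 7 of 10 without Day 28 replicates 2 and 4, with 0 higher under both. The interleukin gene Il5 had 0.615, 2.67, 2.41 and 0.468 CPM at Day 14 and 0, 0.126, 0.114 and 0.234 CPM at Day 28. The interleukin receptor gene Il7r was at 25.5, 31.0, 35.2 and 28.3 CPM and then at 19.7, 16.9, 22.6 and 24.9 CPM (-0.51 ± 0.16, adjusted p = 0.317). Arg1, described above, is on this list too. Checkpoint genes were lower in 5 and higher in 0 of 13: the T cell receptor brake gene Ctla4 was at 6.85, 9.04, 11.3 and 5.11 CPM and then at 2.37, 2.39, 3.73 and 4.02 CPM (-1.37 ± 0.30, adjusted p = 0.251). Havcr2, a receptor gene of exhausted T cells that macrophages and dendritic cells also carry, was at 24.3, 25.6, 22.3 and 21.6 CPM and then at 14.3, 15.03, 17.8 and 16.6 CPM (-0.56 ± 0.12, adjusted p = 0.251, and 0.0350 in the 16-library fit). Cd274, the PD-L1 gene, did not overlap either (-0.49 ± 0.13, adjusted p = 0.317). The summed level of the checkpoint list was alike at both days (527 to 576 CPM and 517 to 572 CPM), and its most abundant gene, Vsir, the gene of the inhibitory receptor VISTA, lay wholly above Day 14 (266.6, 293.0, 267.0 and 269.9 CPM against 293.5, 365, 309 and 297). Mast cell and basophil genes were lower in 4 and higher in 0 of 10 (3 and 1 without replicates 2 and 4), and regulatory T cell genes in 1 and 0 of 10 (5 and 0 without replicates 2 and 4).

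Proliferation genes pointed lower. Of 39 cell cycle genes, 34 had a log2 fold change below 0, 8 were lower and 0 higher at an unadjusted p under 0.05, and without Day 28 replicates 2 and 4 the count was 17 and 0. Mki67, the Ki-67 gene, was at 181, 187, 161 and 121 CPM and then at 87.3, 140, 110 and 89.3 CPM, and overlapped in 1 library of each day (-0.61 ± 0.19, adjusted p = 0.317). The kinetochore gene Cenpf was at 36.3, 33.0, 33.7 and 31.1 CPM and then at 19.7, 33.7, 20.9 and 27.6 CPM, with replicate 2 at the Day 14 level. It passed with sample weights alone (adjusted p = 0.0461). Replication-dependent histone genes, measurable here because total RNA was sequenced, were lower in 1 and higher in 0 of 32 and in 15 and 0 without the 2 libraries.

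Transcripts of other heart cells were present in the CD45 isolates and differed between the days as well. The FB marker list, genes of fibroblasts, had 7 of 10 higher and 0 lower at an unadjusted p under 0.05. Its median was 0.84 (0.86 without Day 28 replicates 2 and 4). Of the 10 genes, 3 lay wholly above Day 14, against 3.59% of all genes. Its summed level was 869 to 1158 CPM at Day 14 and 2260, 1795, 1707 and 2430 CPM at Day 28, with no overlap. With its member Gsn left out, the sum of Day 28 replicate 2 lay within the Day 14 range. Gsn, the gelsolin gene of an actin-severing protein that fibroblasts and leukocytes both make, was at 461, 367, 350 and 431 CPM and then at 964, 1150, 765 and 1002 CPM. It was the highest-ranked gene above Day 14 by p-value under the naming rule (1.27 ± 0.17, adjusted p = 0.2503), and passed with sample weights (0.0410) and in the 16-library fit (0.00346).

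Other genes of fibroblasts were higher in the same libraries. Clec3b, the tetranectin gene, was at 9.53, 7.70, 6.13 and 8.19 CPM and then at 15.7, 27.1, 15.2 and 42.3 CPM (1.66 ± 0.33, adjusted p = 0.251). Smoc2, a matricellular protein gene, was at 24.5, 19.2, 17.6 and 18.5 CPM and then at 48.8, 32.1, 31.1 and 55.5 CPM (1.07 ± 0.21, adjusted p = 0.251). Pi16, a gene of adventitial fibroblasts, was at 40.8, 26.6, 34.2 and 31.6 CPM and then at 73.4, 70.2, 50.3 and 127 CPM (1.27 ± 0.27, adjusted p = 0.251). The proteoglycan gene Dcn overlapped through Day 28 replicate 2 (350, 255, 292 and 349 CPM against 770, 271, 565 and 911). Of the 5 genes that the naming rule took as higher, Gsn, Dpep1 (1.19 ± 0.19), Medag (0.76 ± 0.12), Pcsk6 (0.97 ± 0.17) and Prg4 (1.31 ± 0.21), each with an adjusted p of 0.2503, all 5 passed with sample weights, and Prg4 lies opposite an abundant gene. Dpep1 encodes a membrane dipeptidase, Pcsk6 a proprotein convertase and Prg4 the lubricant lubricin.

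Matrix genes of scar formation went the other way. In the collagen and matrix list 9 of 33 were lower and 3 higher at an unadjusted p under 0.05. Tnc, the tenascin gene of healing tissue, was at 7.78, 17.1, 10.5 and 7.02 CPM and then at 3.32, 2.64, 3.08 and 3.78 CPM (-1.73 ± 0.30, adjusted p = 0.2503, and 0.0350 in the 16-library fit). The fibronectin gene Fn1, which macrophages also express, was at 1537, 2879, 2772 and 2343 CPM and then at 886, 1468, 1456 and 761 CPM (-1.06 ± 0.29, adjusted p = 0.317). Cthrc1, a gene of activated scar fibroblasts, was at 5.76, 4.61, 4.42 and 3.98 CPM and then at 2.00, 0.282, 1.31 and 1.31 CPM (-1.94 ± 0.47, adjusted p = 0.300). The collagen gene Col1a1 overlapped through Day 28 replicate 4 (293, 292, 276 and 238 CPM against 217, 128, 156 and 248). The matrix genes on the higher side were Dcn, Mmp2 and the calcification inhibitor gene Mgp, which did not overlap (119, 84.8, 126 and 128 CPM against 283, 162, 219 and 434).

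Transcripts of vessel wall and muscle cells were lower. Mural cell genes were lower in 7 and higher in 0 of 10 (median -0.62), with the smooth muscle actin gene Acta2 at 21.7, 21.3, 30.7 and 30.1 CPM and then at 17.6, 10.01, 15.4 and 14.1 CPM and the pericyte gene Rgs5 at 109, 96.5, 117 and 169 CPM and then at 95.0, 56.5, 80.6 and 45.4 CPM. EC markers were lower in 4 and higher in 0 of 10 (Cdh5 -0.71 ± 0.25, adjusted p = 0.319). Cardiomyocyte (CM) transcripts were lower in 7 and higher in 0 of 16 and summed to 7229 to 9319 CPM at Day 14 and 6524, 7082, 3605 and 4061 CPM at Day 28. The muscle repeat protein gene Xirp2 was at 119, 116, 127 and 100.9 CPM and then at 72.8, 69.4, 42.5 and 55.7 CPM (-0.94 ± 0.17, adjusted p = 0.2503, and 0.0461 with sample weights). Des, called without Day 28 replicates 2 and 4, was at 45.2, 54.6, 53.8 and 49.4 CPM and then at 23.9, 32.8, 19.5 and 51.8 CPM. These transcripts differed between the same 2 days as the leukocyte genes above, and whether both moved together from library to library was not tested. Their part in the values of any gene that both kinds of cell express, such as Gsn, Fn1 or Tgm2, was not tested either.

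**Figure D3:**
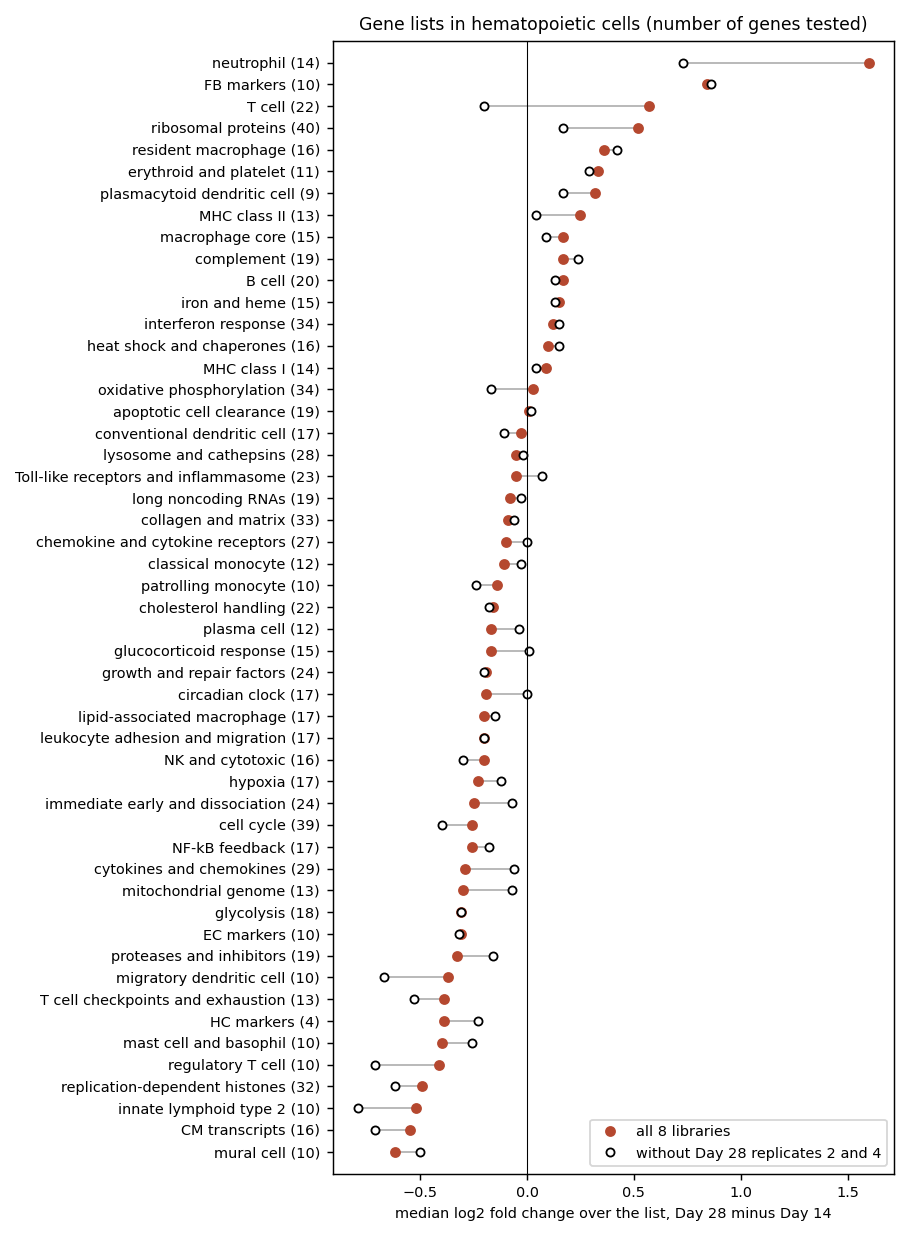
Median log2 fold change, Day 28 minus Day 14 (horizontal axis), over the tested genes of each of 51 lists (vertical axis, number tested in parentheses), from all 8 libraries (filled) and without Day 28 replicates 2 and 4 (open). Neutrophil genes are highest at 1.60 (0.73 open) and mural cell genes lowest at -0.62 (-0.50 open), and the T cell list moves from 0.57 to -0.20.

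Counts for the remaining lists can be read against 7.34% higher and 5.93% lower of all genes. At an unadjusted p under 0.05, classical monocyte genes had 2 higher and 2 lower of 12, patrolling monocyte genes 1 and 1 of 10, conventional dendritic cell genes 2 and 3 of 17, migratory dendritic cell genes 0 and 2 of 10 and plasmacytoid dendritic cell genes 1 and 1 of 9. Chemokine and cytokine receptors had 1 higher and 3 lower of 27, Toll-like receptors and inflammasome genes 1 and 1 of 23, apoptotic cell clearance 1 and 4 of 19, and lysosome and cathepsin genes 0 and 4 of 28. Iron and heme genes had 1 and 1 of 15, proteases and inhibitors 2 and 6 of 19, leukocyte adhesion and migration 1 and 1 of 17, and erythroid and platelet genes 1 and 0 of 11. Oxidative phosphorylation had 0 and 3 of 34, the mitochondrial genome 1 and 1 of 13, heat shock and chaperones 0 and 0 of 16, glucocorticoid response 0 and 2 of 15 and long noncoding RNAs 0 and 1 of 19. Circadian clock genes had 0 and 4 of 17, with Bhlhe40 and Nr1d1 (-0.73 ± 0.18, adjusted p = 0.300) among the 4. Ribosomal protein genes had 0 of 40 in either direction, although their median was 0.52 and their summed level 34400 CPM in Day 28 replicate 4 against 10100 to 13900 CPM in the other 7 libraries.

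The HC libraries of Day 0, from unoperated mice, and of Day 3 give the levels between which these genes moved (4 libraries each, all 16 scaled together, which lowers the Day 14 and Day 28 values given above to 0.944 to 0.961 times). Spp1 averaged 4.24 ± 1.60 CPM (SD, n = 4 here and below) at Day 0, 3337 ± 812 at Day 3, 183 ± 43.6 at Day 14 and 43.8 ± 21.6 at Day 28. The Day 28 libraries (25.5 to 67.7 CPM) were thus all below Day 14 and all above Day 0 (2.85 to 6.43 CPM). Gpnmb followed the same order, at 2.27 ± 0.763, 352 ± 61.2, 38.7 ± 0.915 and 14.4 ± 4.03 CPM, and Olr1 at 1.76 ± 0.198, 39.1 ± 11.5, 28.0 ± 6.17 and 9.07 ± 3.23 CPM. For Tgm2 the Day 28 libraries (38.0 to 46.8 CPM) lay among those of Day 0 (34.6 to 49.99 CPM), after 281 ± 27.2 CPM at Day 3 and 110 ± 28.0 CPM at Day 14. Bhlhe40 at Day 28 (47.9 to 73.8 CPM) was still above Day 0 (40.1 to 46.7 CPM).

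Among the genes that were higher at Day 28, Mgl2, Retnla and Pla2g2d had Day 3 libraries all below those of Day 14. The fibroblast-related genes given below had the same order. Mgl2 averaged 201 ± 4.22 CPM at Day 0, 51.5 ± 7.84 at Day 3, 131 ± 12.3 at Day 14 and 205 ± 15.6 at Day 28, and its Day 28 and Day 0 ranges (188 to 219 and 196 to 205 CPM) overlapped. Retnla averaged 142 ± 21.1, 13.1 ± 6.56, 79.2 ± 19.9 and 163 ± 35.5 CPM and Pla2g2d 44.4 ± 5.87, 7.82 ± 4.08, 21.8 ± 2.96 and 53.5 ± 23.04 CPM, with overlap of Day 28 and Day 0 for both. Clec10a at Day 3 (33.1 to 59.6 CPM) overlapped Day 14 (47.5 to 57.4 CPM), and its Day 28 libraries (74.3 to 99.2 CPM) were all above Day 0 (51.05 to 56.6 CPM). The neutrophil gene S100a9 averaged 47.5 CPM at Day 0 and 202 CPM at Day 3. The fibroblast-related genes shown, like Clec10a, ended above Day 0. Gsn was at 351 to 482 CPM at Day 0 and 726 to 1094 CPM at Day 28, Dpep1 at 12.9 to 15.8 and 21.0 to 35.2 CPM, and Clec3b at 4.84 to 8.30 and 14.4 to 40.6 CPM. Their Day 3 libraries, at 213 to 255, 2.76 to 4.35 and 1.29 to 2.33 CPM, were all below Day 14. The Day 14 libraries were at 331 to 438, 9.04 to 13.6 and 5.80 to 9.04 CPM. These orders are descriptions, with no test against Day 0 or Day 3.

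**Figure D4:**
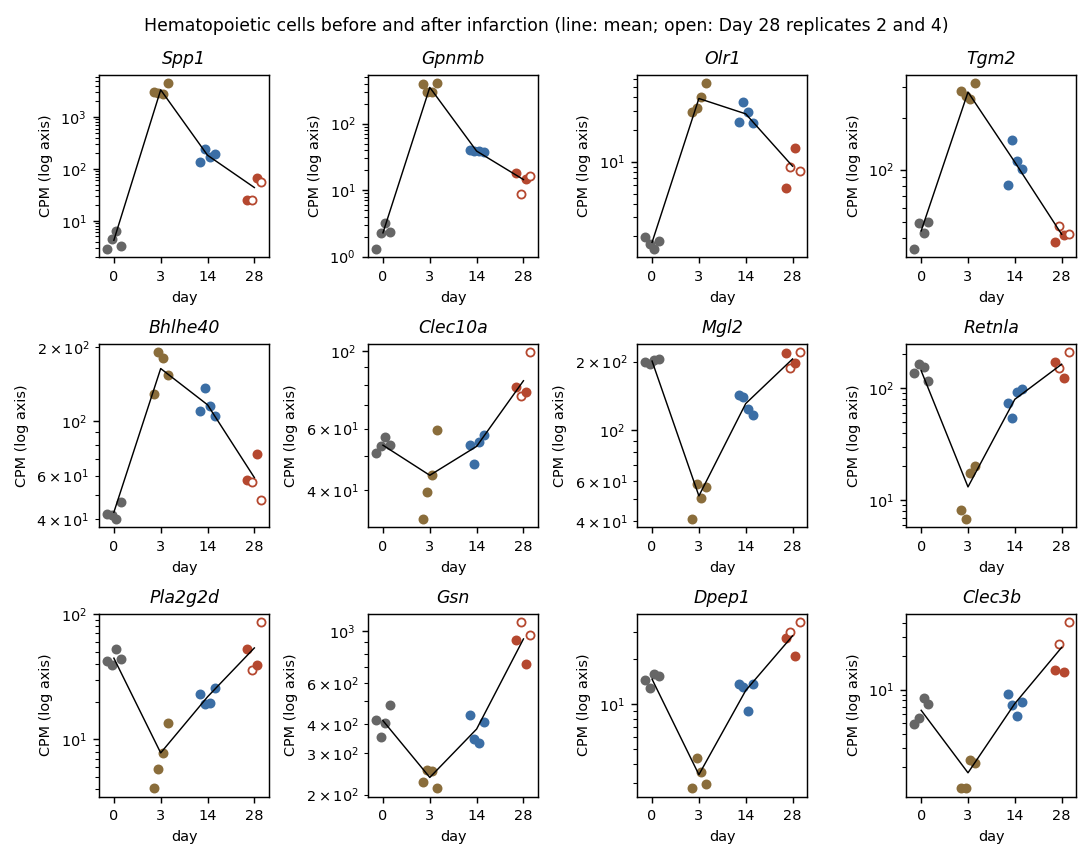
CPM (vertical axis, logarithmic) of 12 genes in HC libraries at Day 0, Day 3, Day 14 and Day 28 (horizontal axis, evenly spaced), 4 libraries a day on one scale, with the mean as a line and open circles for Day 28 replicates 2 and 4. Spp1 goes from a mean of 3337 CPM at Day 3 to 43.8 CPM at Day 28, and Mgl2 goes from 51.5 to 205 CPM, near its Day 0 mean of 201 CPM.

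Fibroblasts (FB) of the same animals at each day, isolated by plating, gave the comparison with another cell type over the same interval. FB were prepared in another library batch, which cannot be told apart from the cell type in levels but is shared by both days of a cell type. In FB 386 genes (2.19% of 17628) rose and 465 (2.64%) fell from Day 14 to Day 28 by the same edgeR test, and the test of the difference between the cell types' changes called 0 higher and 0 lower in HC of 19630 genes (smallest adjusted p = 0.0880). At an unadjusted p under 0.05 that test gave 2149 higher and 1091 lower, and DESeq2 called 222 and 151. Without HC Day 28 replicates 2 and 4 and FB Day 28 replicate 4, the edgeR test called 59 higher in HC (0.296% of 19932) and 41 lower (0.206%). The level of opposite-strand genes was not summed for FB libraries. FB Day 28 replicate 4 held 19670 genes with 10 or more reads, against 16743 to 17868 in the other FB libraries of both days. The changes given for FB alone include FB Day 28 replicate 4, and no FB fit without it was made.

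Several genes that were lower in HC had another course in FB. Gpnmb changed by -1.44 ± 0.20 in HC and by 0.43 ± 0.17 in FB (difference -1.82, adjusted p = 0.0880), and the difference passed without the 3 libraries (-1.65 ± 0.24, adjusted p = 0.0145). Tgm2 changed by -1.40 ± 0.18 in HC and -0.15 ± 0.11 in FB (without the 3 libraries the difference was -1.37 ± 0.24, adjusted p = 0.0380). Hgf was -0.72 ± 0.21 in HC and 0.55 ± 0.13 in FB, where it rose (adjusted p = 0.0484), and the difference without the 3 libraries was -1.03 ± 0.17 (adjusted p = 0.0273). Bhlhe40 was at -0.04 ± 0.09 and Nr4a3 at 0.09 ± 0.15 in FB, and their differences did not pass in either fit. On the higher side, Blvrb (0.96 ± 0.29 in HC and -0.27 ± 0.23 in FB), Mgp (1.26 ± 0.29 and -0.07 ± 0.13) and Mrc1 (0.15 ± 0.18 and -0.92 ± 0.29) differed between the cell types without the 3 libraries (adjusted p = 0.0338, 0.0407 and 0.0488). The study's methods state that pools of the cell types at a day came from the same animals. With same-numbered HC and FB pools of a day as a block, the fit without the 3 libraries called 3 genes in place of 100, all higher in HC (0.0151%; Nppa, Myl7 and Plac8, named after their values were seen), and none of these 6 passed (adjusted p = 0.0651 for Gpnmb, 0.156 for Tgm2, 0.135 for Hgf and for Blvrb, 0.191 for Mgp and 0.173 for Mrc1).

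Genes of scar building fell in FB. Cthrc1 fell by 2.84 on the log2 scale in FB (SE 0.29, adjusted p = 0.0217), Tnc fell by 2.16 (SE 0.32, adjusted p = 0.0242), Fn1 fell by 1.52 (SE 0.27, adjusted p = 0.0284) and Col1a1 fell by 1.38 (SE 0.20, adjusted p = 0.0221). The HC values of the 4 genes were -1.94, -1.73, -1.06 and -0.55, and the difference between cell types did not pass for any of them in either fit without the block (smallest adjusted p = 0.0769, for Col1a1 without the 3 libraries). Mki67 fell in FB too (-0.91 ± 0.14, adjusted p = 0.0221, against -0.61 ± 0.19 in HC). Spp1 was at -1.05 ± 0.31 in FB (adjusted p = 0.0812) and Olr1 at -1.44 ± 0.42 (adjusted p = 0.0828). Of the fibroblast genes that were higher in HC, Gsn was at 0.51 ± 0.19, Pi16 at 0.47 ± 0.17 and Clec3b at 0.51 ± 0.27 in FB. No difference passed for these 3 genes.

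**Figure D5:**
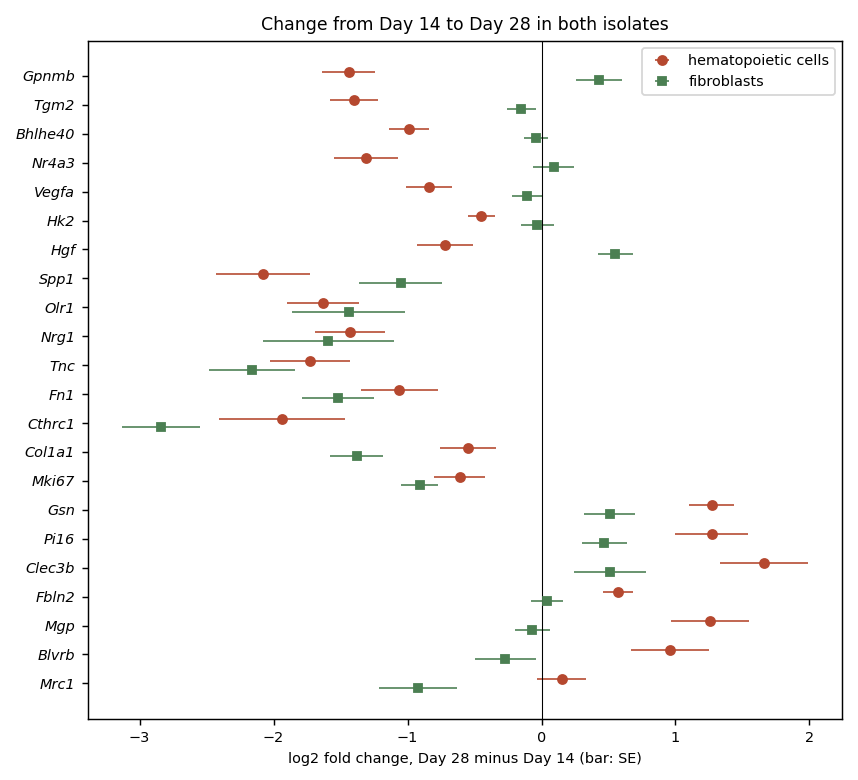
Log2 fold change, Day 28 minus Day 14 (horizontal axis, bars of 1 SE), of 22 genes (vertical axis) in hematopoietic cells (red circles) and fibroblasts (green squares). Gpnmb lies at -1.44 in hematopoietic cells and 0.43 in fibroblasts, while Cthrc1 lies below 0 in both (-1.94 and -2.84).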

How the data were processed

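Total RNA of 4 cell types of the infarcted heart was sequenced, and 8 HC libraries were compared here, 4 a day. Libraries were depleted of rRNA. As the labels and methods state, the authors used Trim Galore on the reads, STAR 2.28 (2 passes, mm10) for alignment and Salmon for quantification. Whether the strand was used in counting is not given in the sources used here. The deposited files give estimated counts (expected counts) and TPM per gene, with 369 of 51398 entries as transcripts, which were summed per gene with GENCODE M21 (50953 genes). TPM entered 1 alternative, as log2 with a pseudocount of 1.

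Estimated counts, rounded, entered edgeR 4.0.16 under R 4.3.3 (TMM scaling, filterByExpr, robust quasi-likelihood fit, Benjamini-Hochberg adjustment, threshold 0.05). Every adjusted p in the text is from this test unless limma 3.58.1, DESeq2 1.42.0 or another fit is named. The edgeR fits of both comparisons were tested on simulated counts. An SE was obtained by dividing a log2 fold change by the root of its F. FB entered a further fit of 16 libraries (day, cell type and their interaction). The FB values are from the 8 FB libraries alone, FB Day 28 replicate 4 included.

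Genes were named by a rule: a call, 10 CPM or more on average, a gene symbol that is not a clone name, and groups that did not overlap, in the same direction without Day 28 replicates 2 and 4. As none was called, the 5 lowest p-values in each direction were taken, with 4 HC markers, Il1b and Folr2. 1 gene so taken is not reported here. The other genes named were chosen after their values were seen. The 51 lists and the libraries compared were chosen with earlier results of these data known. The alternatives were other scaling, filters and tools, leaving out libraries, a shared spread and a replicate block. HC of Day 1 and Day 7, deposited per transcript, were not used. Intervals from counting were not computed, and depth was 21679460 to 34784030 estimated reads a library. Multigene families and overlapping genes may share reads.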

Additional observations from a re-analysis of the deposited data

Results flagged for a closer look

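Of 206 groups of 4 libraries checked (each gene named or taken by the naming rule, at each day), 10 had 1 library far from the other 3. The rule for this flags about 1 in 20 groups of random values. Most of these genes were chosen after their values were seen, so the count cannot be set against that rate. Day 28 replicate 4 was the one for 4 genes: Camp (67.5 CPM against 0.157 to 0.950), Ngp (90.4 CPM against 1.69 to 3.62), Blvrb (159 CPM against 59.1 to 74.5) and Hk2 (58.8 CPM against 69.0 to 70.8). In that library rRNA took 32.2% of reads and rare opposite-strand genes summed to 11080 CPM. Their part in the 4 values was not tested. For Blvrb and Hk2 the groups stayed apart whether or not replicate 4 is counted.

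At Day 14, replicate 2 stood apart for Camp (3.00 CPM against 0.350 to 0.483) and Ngp (10.2 CPM against 1.75 to 2.86), the same granule genes. The other single libraries were Day 14 replicate 3 for Dpep1 (9.55 CPM against 13.7 to 14.4), Day 14 replicate 4 for Pf4 (349 CPM against 299 to 302), Day 14 replicate 1 for Nr1d1 (31.5 CPM against 21.4 to 22.7) and Day 28 replicate 3 for Osm (22.97 CPM against 10.2 to 11.5).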

How the results depend on the processing

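The count of 0 genes called between Day 28 and Day 14 stayed at 0 with RLE size factors, limma on log2(TPM + 1), no filter, a fit that was not robust, without opposite-strand genes, without rRNA and mitochondrial genes, and in an alternative added after the data were seen (spread over 14 HC libraries, without Day 28 replicates 2 and 4). It became 410 with DESeq2, 67 with limma voom sample weights, 37 with the spread of 16 HC libraries and 2 without Day 28 replicates 2 and 4. Leaving out 1 library gave 0 to 1, the 1 being an unnamed rare entry without Day 14 replicate 2 or 3. For the difference between HC and FB, 0 became 373 with DESeq2. It became 100 without HC Day 28 replicates 2 and 4 and FB Day 28 replicate 4. With 1 library left out it was 0 to 18 (18 without FB Day 14 replicate 2, 5 without HC Day 28 replicate 2). With RLE size factors or no filter it stayed at 0. The cause of these shifts was not tested.

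The replicate block gave 0 calls for both comparisons over all libraries. Replicate numbers are not tied between days by the labels, and the deviations of same-numbered HC libraries correlated at 0.103, -0.0522, 0.0578 and 0.0327, so they were not treated as pairs. HC and FB pools of a day came from the same animals by the study's methods, but whether equal numbers mark equal animals is not given in the sources used here: deviations of same-numbered HC and FB libraries correlated at -0.0745 to 0.102 at Day 14 and -0.219 to 0.395 at Day 28. The replicate block (day and replicate number) without HC Day 28 replicates 2 and 4 and FB Day 28 replicate 4, added after the data were seen, gave 3 calls, against 100 without the block.

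Among gene values under the alternatives, 1949 kept direction and side of the threshold, 93 passed it in the same direction and 17 reversed. Il1b reversed to 0.13 without Day 28 replicates 2 and 4 and 0.12 with the 14-library spread, and with 1 library left out ranged from -0.44 to 0.01 (without Day 28 replicate 2). Folr2 reversed to 0.32 with sample weights and 0.56 without both (also with the 14-library spread), and ranged from -0.48 to 0.23, reversed without Day 28 replicate 2 (0.03) or 4 (0.23). Trem2 ranged from -0.38 to 0.08, reversed without Day 28 replicate 2 (0.08) or 3 (0.03). Camp reversed to -0.13 without both and -0.14 with the 14-library spread, and ranged from -0.60 (without Day 28 replicate 4) to 5.41. Ngp reversed to -0.36 under each of these and -0.08 with sample weights, and ranged from -0.62 (without Day 28 replicate 4) to 3.34. Of list medians, 1001 moved by less than the SD between replicates and 18 by more.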
